A study of Mus musculus with 61 samples.

Results

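The opioid receptors are encoded by 4 genes, and their RNA was followed in nuclei sorted from the nucleus accumbens (ventral striatum) of mice. The genes are Oprm1 (mu receptor), Oprd1 (delta receptor), Oprk1 (kappa receptor) and Oprl1 (the nociceptin receptor), and they were taken by symbol, 4 of the 55401 genes in the count table. All mice were male and carried LSL-eGFP::L10a, a fluorescent tag on the ribosomal protein L10a that needs Cre to be expressed. The transgene was switched on by D1-Cre or by D2-Cre, Cre drivers of the dopamine receptor genes D1 and D2, by which the main projection neurons of the striatum are told apart. Nuclei were purified by fluorescence from frozen bilateral tissue punches, so each library holds bulk RNA of tagged nuclei. Mice were given saline or morphine daily for 15 days, stayed in the home cage for 30 days, and were killed 1 h after a challenge injection. Group names give the repeated drug first and the challenge second. SS mice had saline both times, SM mice repeated saline and a morphine challenge, MS mice repeated morphine and a saline challenge, and MM mice morphine both times. The 61 libraries comprised, in the order SS, SM, MS and MM, 8, 8, 9 and 7 of D1 nuclei and 7, 7, 8 and 7 of D2 nuclei. The labels do not assign a dose, and give no age. They do not say whether libraries of a group came from separate mice or pools, so p-values measure the spread between these libraries, which may be technical.

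Opioid receptors couple to inhibitory G proteins. On activation they lower adenylyl cyclase activity, open inwardly rectifying potassium channels and hold back presynaptic calcium channels. Morphine acts mainly through the mu receptor. In the striatum, enkephalin from D2 neurons acts on delta and mu receptors, and dynorphin from D1 neurons acts on kappa receptors. The mu receptor is known as a marker of striosomes, and the kappa receptor is also carried on dopamine terminals, whose RNA lies outside the striatum. Nuclear RNA holds unspliced transcripts, and it reports transcription and nuclear retention, not receptor protein. In bulk nuclei, fewer nuclei with a transcript and less transcript per nucleus cannot be told apart.

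On mm10, Oprm1 (ENSMUSG00000000766.18) spans chr10:6758506-7038198 on the plus strand, 279.693 kb. Oprd1 (ENSMUSG00000050511.1) spans chr4:132110726-132144486 on the minus strand, 33.761 kb. Oprk1 (ENSMUSG00000025905.14) spans chr1:5588466-5606131 on the plus strand, 17.666 kb, and Oprl1 (ENSMUSG00000027584.17) spans chr2:181715016-181720985 on the plus strand, 5.97 kb. All 4 are protein-coding genes, and the deposited values cover each span, introns included. Counts per library ran from 1521 to 3456 for Oprm1, 314 to 1053 for Oprd1, 181 to 944 for Oprk1 and 88 to 332 for Oprl1, the order of their lengths.

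The promoter windows of Oprd1 and Oprm1 are shown because Oprd1 was the receptor gene called between the neuron classes, and Oprm1 the one whose counts lay nearest the background. Both run from 250 bases before to 50 bases after an annotated start site (RefSeq, GRCm38.p6), with CG dinucleotides in capitals. The Oprd1 window is chr4:132144437-132144736 on the minus strand, and the Oprm1 window is chr10:6788320-6788619 on the plus strand.

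Oprd1: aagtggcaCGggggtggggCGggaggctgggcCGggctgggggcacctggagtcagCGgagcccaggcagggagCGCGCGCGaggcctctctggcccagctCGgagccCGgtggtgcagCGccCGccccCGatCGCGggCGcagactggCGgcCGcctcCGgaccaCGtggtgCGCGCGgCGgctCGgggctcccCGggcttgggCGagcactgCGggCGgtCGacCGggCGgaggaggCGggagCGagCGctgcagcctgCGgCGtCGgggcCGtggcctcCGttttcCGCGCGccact

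Oprm1: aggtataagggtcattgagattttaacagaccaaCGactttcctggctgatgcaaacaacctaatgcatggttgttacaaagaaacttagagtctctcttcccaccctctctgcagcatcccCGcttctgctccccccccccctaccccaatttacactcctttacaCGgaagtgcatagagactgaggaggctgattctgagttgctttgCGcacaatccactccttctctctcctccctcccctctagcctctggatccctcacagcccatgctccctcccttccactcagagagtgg

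The Oprd1 window had a GC content of 79.3% and 43 CG dinucleotides, and 97.8% of the 32851 promoter windows had that many or fewer. The Oprm1 window shown had a GC content of 52% and 4 CG dinucleotides, against medians of 52.7% and 7 over all windows, and is 1 of 3 annotated Oprm1 windows, which held 3, 4 and 5. The 3 annotated Oprl1 windows held 5, 2 and 2. Oprk1 was not matched in the promoter table. Both strands of each window were searched for the cyclic AMP response element TGACGTCA, the AP-1 motif TGACTCA and the E-box CACGTG. Among the windows of Oprd1, Oprm1 and Oprl1, the search found 1 E-box, in Oprd1 at position -86 from the start site. An E-box of these letters was present in 7.15% of all windows, TGACGTCA in 1.79% and TGACTCA in 5.2%. A match is a description of the letters and says nothing of binding.

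Because a part of the counts, which differed between libraries, appeared to follow gene length rather than expression, the receptor genes were first set against a background. The background was the density, in CPM (counts scaled to a common library total) per kb of gene span, over 1464 chemoreceptor genes of the nose (olfactory and vomeronasal). The libraries held 11518606 to 26108954 counts (median 17924400). The background was 0.47 ± 0.107 CPM per kb (SD, n = 61) and ranged from 0.057 to 0.66. Applied to the length of all genes it would account for 61.5% ± 14 of counts (SD, n = 61). Replicate 1 of the D1 SS group stood apart with a background of 0.057 CPM per kb, a share of 7.46%, and results are given with and without it where it bears on them. The marker lists of the labelled cells had higher median ratios to background in their own class but were not confined to it. Of 8 D1 markers, 6 reached 2 times background in D1 and 4 in D2 nuclei, with medians of 8.69 and 2.06 times. Of 6 D2 markers measured, 4 did so in each class, with medians of 3.04 times in D1 and 14.4 times in D2 nuclei. Drd1 was lower in D2 than in D1 nuclei by a log2 difference of -2.67 ± 0.18 (SE, adjusted p = 2.8e-17, edgeR) and Drd2 higher by 3.31 ± 0.17 (SE, adjusted p = 1.6e-22). Of the markers of cholinergic interneurons, astrocytes, microglia and endothelial cells, 0 reached 2 times background in either class, whereas 26.7% of all genes did. Of 5 markers of other interneurons, 2 did so in D1 and 1 in D2 nuclei: Sst (somatostatin) at 20.4 and 8.79 times, and Npy (neuropeptide Y) at 2.44 times in D1. Of 5 cortical neuron markers 1 did in D1 and 0 in D2, Slc17a7 (a vesicular glutamate transporter), which stood at 2.72 times in D1 without D1 SS replicate 1. Of 5 oligodendrocyte markers 1 did in D1 and 0 in D2, Mbp (myelin basic protein) at 2.19 times. The part of such cells in the receptor values was not tested.

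The density of Oprm1 lay close to the background. Its density was 0.483 ± 0.0528 CPM per kb (SD, n = 61), and the mean was 1.03 times the mean background. It lay above the background of its own library in 35 of 61 libraries, and the ratio ran from 0.815 through a median of 1.03 to 4.54. Without D1 SS replicate 1 the highest ratio was 1.74. Of 1464 single chemoreceptor genes, 51.3% had a lower mean density than Oprm1. The density of Oprm1 followed the background across libraries (Spearman's rho 0.888, n = 61, both divided by the same library total), and its distance above background ran the other way (rho -0.933). At the median, background density applied to the whole span would account for 96.9% of the Oprm1 counts. Overlapping genes cover 55.7% of that span, against a mean of 3.56% for the chemoreceptor genes, and no allowance was made for this. A fold change of the whole Oprm1 counts understates any change in the part above background.

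The Oprm1 gene is also overlapped. Ipcef1 on the opposite strand, together with the model gene Gm10945, covers 55.7% of its span, while Oprd1, Oprk1 and Oprl1 have no overlapping gene. Among 423 genes longer than 5 kb with 50 to 75% of their span overlapped from the opposite strand, the median ratio to background was 1.17, against 1.5 among 11723 genes without overlap. Where the whole span was overlapped the median was 0.838 (1314 genes). The strand setting of the counting is not given in the sources used here, and the part of overlap in the Oprm1 value was not tested. Summed over the merged region of these 3 genes (chr10:6740629-7052478, 311.85 kb), the ratio was 1.46 ± 0.571 (SD, n = 61), from 1.13 to 5.65, and it was above 1 in 61 of 61 libraries. The 3 spans (279.693, 166.683 and 21.133 kb) overlap, so their lengths together exceed the merged length. If counting kept the strands apart, background alone would give a ratio above 1. That holds only under such counting, which was not tested. Where the whole span was overlapped on the same strand, the median ratio was 0.789 (376 genes), beside the 0.838 on the opposite strand. While the strand setting is not known, the ratio of the region does not tell signal from background. Without D1 SS replicate 1 the region stood at 1.40 ± 0.19 in D1 (SD, n = 31), beside 1.38 ± 0.13 in D2 nuclei (SD, n = 29).

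The other 3 receptor genes exceeded background in all 61 libraries. The mean density was 2.04 times the mean background for Oprd1, 2.51 times for Oprk1 and 3.23 times for Oprl1. Among 11723 genes without overlap, 81.9% lay below Oprd1, 90.3% below Oprk1 and 95.1% below Oprl1, and 15.9% below Oprm1, which is itself overlapped. Among 423 genes overlapped on the opposite strand over 50 to 75% of their span, the ratio had quartiles of 0.982 and 1.48. Oprm1 stood at 1.03. In order of density per kb, Oprl1 was highest at 1.52 ± 0.331, then Oprk1 at 1.18 ± 0.299, Oprd1 at 0.957 ± 0.249 and Oprm1 at 0.483 ± 0.0528 CPM per kb (SD, n = 61 each). The SDs of Oprl1 and Oprk1 overlap, as do those of Oprk1 and Oprd1. The genes were measured in the same libraries, and the differences between them were not tested. The order of density is the reverse of that of span length, introns included, and the part of length in it was not tested. In D2 nuclei the order of Oprk1 and Oprd1 was reversed, with 1.16 ± 0.186 for Oprd1 and 1.03 ± 0.206 for Oprk1 (SD, n = 29 each). Background density would account for a median of 52.5% of the counts of Oprd1, 43% of Oprk1 and 32% of Oprl1. Genes within 500 kb gave a stricter yardstick. Oprl1 exceeded the median density of its 35 neighbours in 61 of 61 libraries and Oprk1 that of its 9 in 54, but Oprd1 exceeded that of its 50 neighbours in 24, with a median ratio of 0.912.

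**Figure D1:**
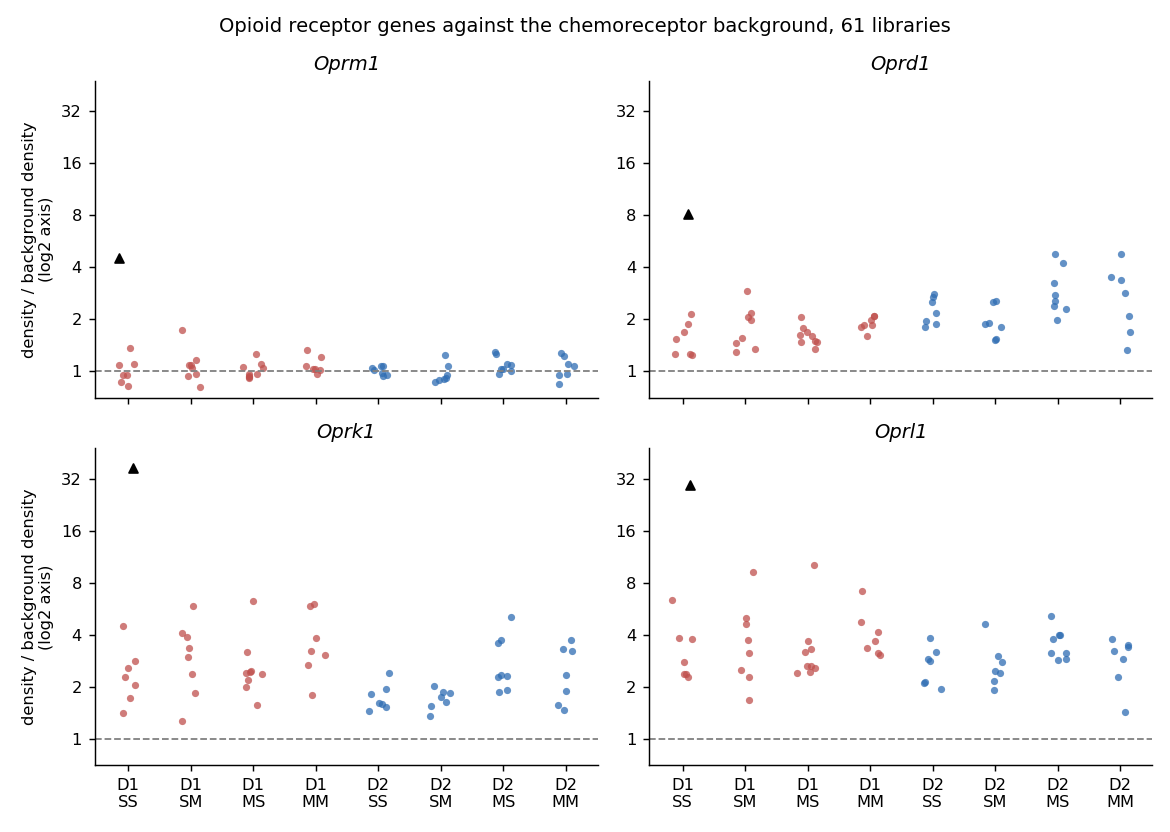
Density of each receptor gene divided by the background density of the same library (log2 axis), by group, with 1 point per library (red D1, blue D2, black triangle D1 SS replicate 1). Oprm1 scatters around 1 with a median of 1.03, while every Oprd1, Oprk1 and Oprl1 point lies above 1.

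**Figure D2:**
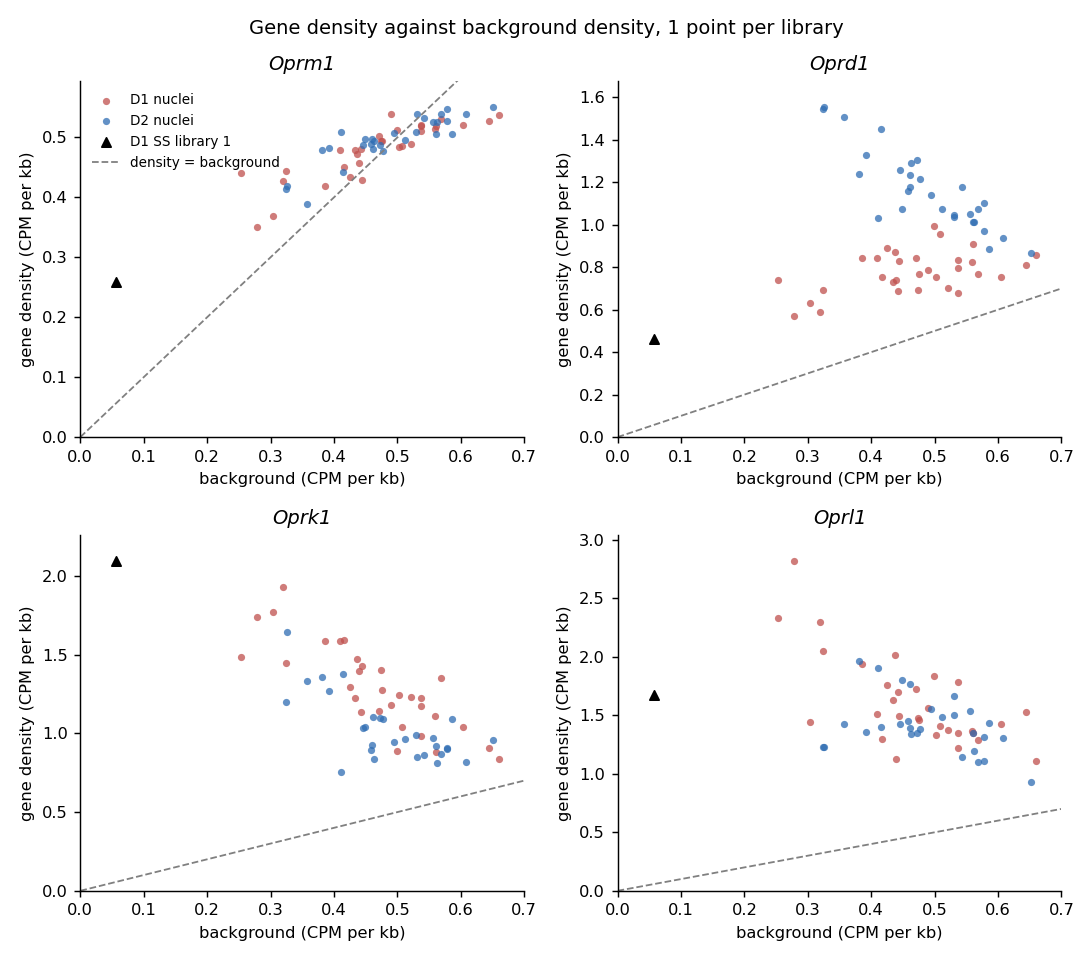
Density of each receptor gene against background density, both in CPM per kb, with 1 point per library and the line of equality dashed. Oprm1 crosses the line, and the D2 points of Oprd1 lie above most of its D1 points.

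The delta receptor gene Oprd1 was higher in D2 than in D1 nuclei. Its level above background, the density minus the background of the same library, was 0.676 ± 0.264 CPM per kb in D2 (SD, n = 29) and 0.315 ± 0.102 in D1 nuclei (SD, n = 32), a ratio of 2.15. The permutation p was 2e-05, the smallest that 100000 two-sided resamples can give, and 0.0012 after adjustment over 60 tests (4 genes in 15 comparisons). In the counts, edgeR gave a log2 difference of 0.54 ± 0.07 (SE, adjusted p = 6.1e-08 over 42870 genes). Oprd1 was 1 of 4 receptor genes called at an adjusted p under 0.05 in this comparison, in which 0.301% of all genes were called. The log2 difference is taken on whole counts, from which the background is not removed.

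The delta receptor difference was then read within each treatment. In SS the level above background ran from 0.14 through a median of 0.27 to 0.448 CPM per kb in 8 D1 libraries, and from 0.453 through 0.635 to 0.827 in 7 D2 libraries. The groups did not overlap, and the share of all genes without overlap on this level was not computed. In MS it ran from 0.183 through 0.293 to 0.374 in 9 D1 libraries and from 0.514 through 0.787 to 1.23 in 8 D2 libraries, again without overlap. The exact permutation p was 0.000311 in SS (adjusted 0.00622) and 8.23e-05 in MS (adjusted 0.00247). As a log2 ratio to the background of the same library, the SS difference was 0.23 and did not pass (exact permutation adjusted p = 0.852).

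In SM the D1 libraries ran from 0.197 through 0.365 to 0.485 and the D2 libraries from 0.299 through 0.493 to 0.72 CPM per kb, with 4 of 7 D2 libraries above every D1 library. In MM the D1 range was 0.271 through 0.336 to 0.493 and the D2 range 0.216 through 0.814 to 1.22, with 5 of 7 D2 libraries above every D1 library and 1 below every one. Neither passed the exact permutation test after adjustment (p = 0.0556 and 0.0268, adjusted 0.21 and 0.161). edgeR called Oprd1 in MS at a log2 difference of 0.83 ± 0.13 (SE, adjusted p = 4.2e-05) and in MM at 0.64 ± 0.14 (SE, adjusted p = 0.0479), and not in SS at 0.44 ± 0.13 (SE, adjusted p = 0.0984) or SM at 0.27 ± 0.13 (SE, adjusted p = 0.894). It was the 1 receptor gene called in MS and in MM, where 0.0746% and 0.056% of genes were called. Of the 4 receptor genes 0 were called in SS and SM, where 0.0467% and 0.0303% of genes were. With DESeq2, the log2 difference in MM was 0.64 and not called (adjusted p = 0.0681, with 0.0933% of genes called). In SS it was called with library totals only (0.66, adjusted p = 0.00078) and with the background as a covariate (0.60, adjusted p = 0.0025), where 0.056% and 0.0606% of genes were called.

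A further scale, chosen after seeing the data, divides the level above background by the share of the library outside the background, so that the CPM refer to those counts alone. On this rescaled level, Oprd1 was 1.84 ± 0.265 CPM per kb in D2 (SD, n = 29) and 0.834 ± 0.278 in D1 nuclei (SD, n = 32). The difference passed the permutation test in all 4 treatments, with adjusted p between 0.00165 and 0.00799. The D2 and D1 groups did not overlap in SS, MS and MM, and in SM 5 of 7 D2 libraries lay above every D1 library. On the rescaled level, too, the share of all genes without overlap was not computed. In D2 nuclei the rescaled level was 1.67 ± 0.298 (SM, SD, n = 7), 1.90 ± 0.25 (MS, SD, n = 8) and 1.86 ± 0.285 (MM, SD, n = 7) beside 1.90 ± 0.20 (SS, SD, n = 7).

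Cholinergic interneurons also express Drd2 and can be tagged by D2 drivers, so their markers are set beside this result. Of 4, 0 were at 2 times background in D2 nuclei, where the ratios ran from 0.663 to 1.49, and in D1 nuclei they ran from 0.564 to 1.46. Chat, the acetylcholine-synthesising enzyme, stood at 1.49 times background in D2 and 1.46 times in D1 nuclei. The genes most like Oprd1 over the 61 libraries were Fig4 (a phosphoinositide phosphatase), Drd2 and its neighbour Ankk1, with Pearson correlations of 0.91, 0.88 and 0.88. Likeness was measured on log2 CPM after regression on log2 background, among 6523 genes at 2 times background or more, and these libraries share the D1 to D2 contrast.

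The kappa receptor gene Oprk1 lay the other way, higher in D1 nuclei on most measures. Its level above background was 0.863 ± 0.417 CPM per kb in D1 (SD, n = 32) and 0.54 ± 0.272 in D2 nuclei (SD, n = 29), a D2 to D1 ratio of 0.626 (permutation p = 0.0007, adjusted 0.0105). Without D1 SS replicate 1 the D1 mean was 0.825 ± 0.363 (SD, n = 31, permutation adjusted p = 0.0213). In the counts the edgeR log2 difference of D2 against D1 was -0.52 ± 0.13 (SE), which did not pass the threshold (adjusted p = 0.056). It passed with library totals only (-0.38, adjusted p = 0.0014), with DESeq2 (-0.60, adjusted p = 0.0173) and with the background as a covariate (-0.28, adjusted p = 0.0027), where 0.413%, 0.359% and 0.597% of genes were called. It did not pass without D1 SS replicate 1 (-0.39, adjusted p = 0.0587).

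The kappa receptor gene was also read within each treatment. In SS, Oprk1 ran from 0.266 through a median of 0.693 to 2.04 CPM per kb above background in D1 and from 0.25 through 0.32 to 0.643 in D2 nuclei. In SM it ran from 0.175 through 0.982 to 1.24 in D1 and from 0.213 through 0.358 to 0.507 in D2 nuclei. Ranges overlapped in both, and the exact permutation p was 0.0171 and 0.00901 (adjusted 0.123 and 0.0901).

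In MS, Oprk1 ran from 0.322 through 0.691 to 1.46 in D1 and from 0.449 through 0.621 to 1.32 CPM per kb above background in D2 nuclei, with means of 0.749 and 0.752. In MM it ran from 0.39 through 0.983 to 1.61 in D1 and from 0.306 through 0.59 to 0.96 in D2 nuclei. Neither difference passed the exact permutation test after adjustment (adjusted p = 0.999 and 0.21). The edgeR log2 differences were -0.99 ± 0.26 in SS, -0.66 ± 0.26 in SM, 0.03 ± 0.24 in MS and -0.47 ± 0.27 in MM (SE), none called at adjusted p of 0.0984, 0.894, 0.999 and 0.98. In SS, Oprk1 was called with DESeq2 size factors (-1.28, adjusted p = 0.0298) and DESeq2 (-1.29, adjusted p = 0.0115), which also called 19.2% and 22.9% of all genes. Without D1 SS replicate 1 the SS value shrank to -0.44 ± 0.20 (SE, adjusted p = 0.924, edgeR). On the rescaled level, Oprk1 in SS was 1.13 ± 0.232 in D2 (SD, n = 7) and 1.92 ± 0.267 in D1 nuclei (SD, n = 8, exact permutation adjusted p = 0.00622), with 6 of 7 D2 libraries below every D1 library. It did not pass in SM at 1.33 ± 0.446 in D2 and 2.19 ± 0.591 in D1 (adjusted p = 0.0578, exact permutation), nor in MS at 1.69 ± 0.326 and 2.0 ± 0.34 (adjusted p = 0.346), nor in MM at 1.66 ± 0.327 and 2.19 ± 0.543 (adjusted p = 0.248, SD throughout).

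The genes most like Oprk1 were Car12 (a carbonic anhydrase), Strn (striatin) and Nup93 (a nuclear pore protein), at correlations of 0.82, 0.79 and 0.78 over 61 libraries. Without D1 SS replicate 1 the correlations were 0.79, 0.74 and 0.75. The density of Oprk1 fell as the background rose (Spearman's rho -0.711, n = 61), and both share the library total.

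The nociceptin receptor gene Oprl1 had the highest density and no difference between the classes that passed. Its level above background was 1.16 ± 0.458 CPM per kb in D1 (SD, n = 32) and 0.927 ± 0.281 in D2 nuclei (SD, n = 29, permutation p = 0.0185, adjusted 0.123). The edgeR log2 difference was -0.31 ± 0.11 (SE, adjusted p = 0.355). In SS, Oprl1 was called lower in D2 nuclei with DESeq2 size factors (-0.75, adjusted p = 0.0365) and DESeq2 (-0.77, adjusted p = 0.0185), the alternatives that called 19.2% and 22.9% of all genes. In D1 the group medians were 1.05 (SS), 1.06 (SM), 0.85 (MS) and 1.14 (MM) within ranges of 0.686 to 1.73, 0.451 to 2.08, 0.69 to 2.54 and 0.881 to 1.98. In D2 they were 0.876 (SS), 0.848 (SM), 1.06 (MS) and 0.965 (MM) within 0.536 to 1.30, 0.53 to 1.49, 0.874 to 1.59 and 0.282 to 0.988. All of these ranges overlap. Its closest genes were Igsf8, Chga (chromogranin A, a protein of dense core vesicles) and Gpc1 (glypican 1), each at a correlation of 0.80, and at 0.74, 0.75 and 0.75 without D1 SS replicate 1.

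For Oprm1 the level above background was 0.0178 ± 0.0722 CPM per kb in D1 (SD, n = 32) and 0.00859 ± 0.0547 in D2 nuclei (SD, n = 29), both smaller than their SDs (permutation adjusted p = 0.895). The edgeR log2 difference was 0.02 ± 0.03 (SE, adjusted p = 0.795). Group medians ran from -0.0503 (D2 SM) to 0.0282 (D2 MM), and every group held libraries on both sides of 0.

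**Figure D3:**
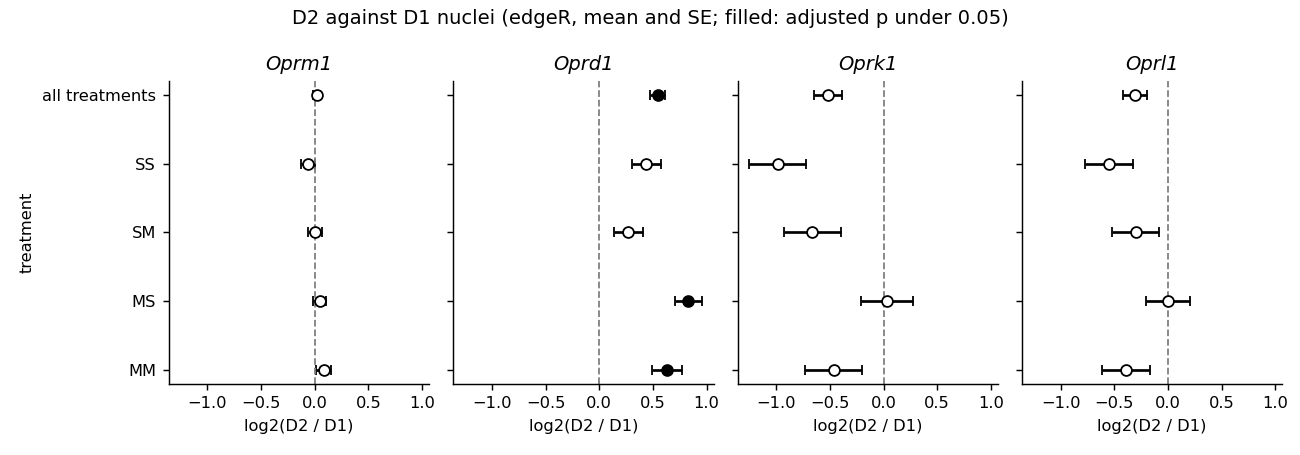
edgeR log2 difference of D2 against D1 nuclei for each receptor gene, over all treatments and within each, as estimate and SE, with filled points at an adjusted p under 0.05. Oprd1 is filled over all treatments (0.54), in MS (0.83) and in MM (0.64), and no other gene is.

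**Figure D4:**
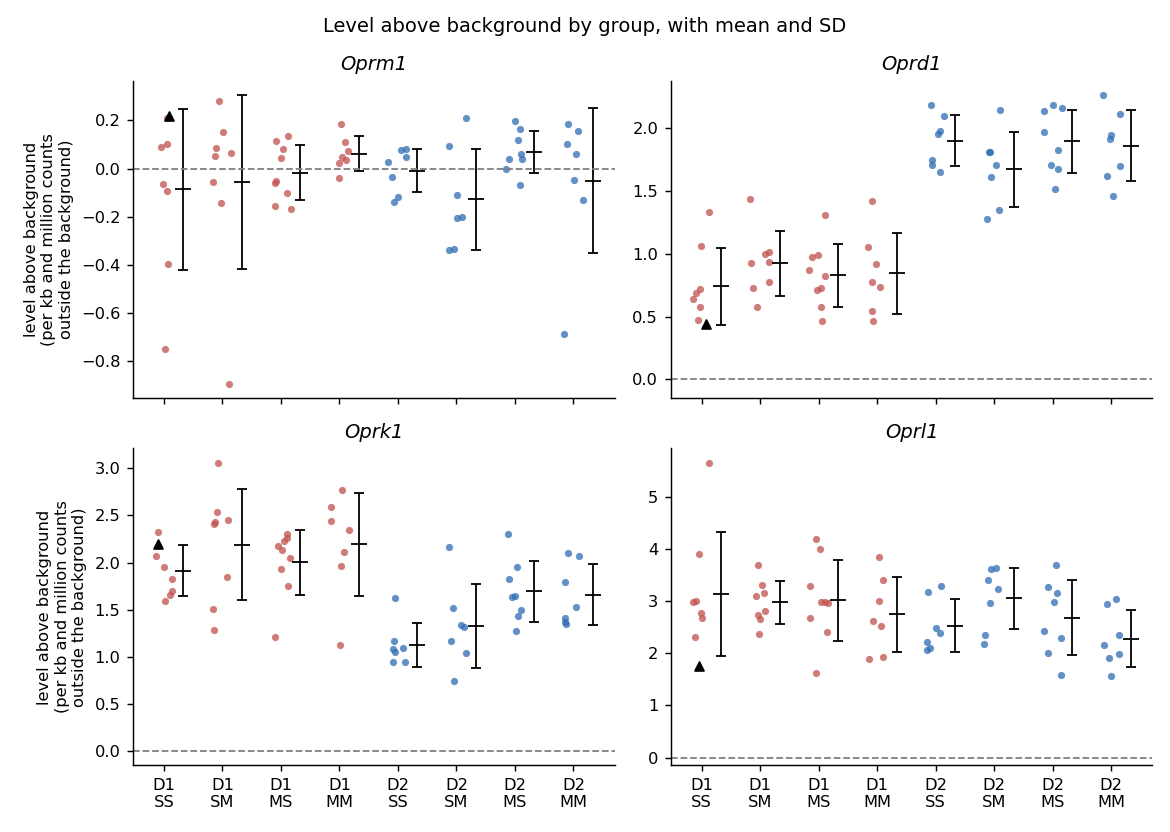
Rescaled level above background (CPM per kb, with only counts outside the background in the total), by group, with 1 point per library, the mean and the SD (red D1, blue D2, black triangle D1 SS replicate 1). Oprd1 is higher in D2 (1.84) than in D1 (0.834), and Oprk1 in D2 nuclei is lowest in SS (1.13).

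Morphine comparisons asked whether the receptor genes differ with the challenge alone (SM against SS), with morphine history (MS against SS), with both (MM against SS), and between challenges or histories. In D1 nuclei 0 of 4 receptor genes were called in any of 6 comparisons, in each of which 0% of 41083 genes were called by edgeR. Between 550 and 1101 genes had an unadjusted p under 0.05 there, and DESeq2 and limma voom also called 0. The log2 values of Oprk1 in D1 were -0.27 ± 0.30 in SM, -0.40 ± 0.29 in MS and -0.07 ± 0.31 in MM against SS (SE). Those of Oprm1, Oprd1 and Oprl1 against SS lay between -0.20 (Oprl1, MS) and 0.03 (Oprd1, MM). The direction of Oprk1 turned without D1 SS replicate 1, at 0.27 ± 0.21 in SM, 0.14 ± 0.21 in MS and 0.47 ± 0.22 in MM against SS (SE), with none called (edgeR adjusted p at least 0.665, 0% of genes called). The other 3 genes then lay between -0.04 (Oprm1, MM) and 0.18 (Oprl1, MM).

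In D2 nuclei, after morphine history, Oprk1 had the largest value of the 4 genes. Against SS its log2 difference was 0.59 ± 0.15 in MS (SE, adjusted p = 0.0713, edgeR), 0.42 ± 0.16 in MM (SE, adjusted p = 0.362) and 0.04 ± 0.16 in SM (SE, adjusted p = 1). In MS, Oprl1 stood at 0.33 ± 0.13 (SE, adjusted p = 0.079), Oprd1 at 0.31 ± 0.15 (SE, adjusted p = 0.154) and Oprm1 at 0.01 ± 0.04 (SE, adjusted p = 0.864). edgeR called 0 of 4 in any of 6 comparisons, in each of which 0% of 41125 genes were called, with 1333 to 13164 genes at an unadjusted p under 0.05. The 13164 belong to MS against SS, where 0.0713 was also the smallest adjusted p of any gene (edgeR). For MS against SS, DESeq2 called Oprk1 (0.63, adjusted p = 0.0302) and Oprl1 (0.37, adjusted p = 0.0485), but it also called 15.2% of all genes. In the other 5 comparisons DESeq2 called 1 gene, in MM against MS, and limma voom called 0 in all 6.

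On the level above background, Oprk1 in D2 nuclei was 0.377 ± 0.131 CPM per kb in SS (SD, n = 7) and 0.752 ± 0.307 in MS (SD, n = 8), a ratio of 1.99 (exact permutation p = 0.00497, adjusted 0.0597). With olfactory receptor genes alone as background the difference was 0.387 CPM per kb and passed (exact permutation adjusted p = 0.0485). On the rescaled level it was 1.13 ± 0.232 in SS, 1.33 ± 0.446 in SM, 1.69 ± 0.326 in MS and 1.66 ± 0.327 in MM (SD, n = 7, 7, 8 and 7). There MS against SS gave an exact permutation p of 0.00249 (adjusted 0.0186) with 5 of 8 MS libraries above every SS library. MM against SS gave 0.00466 (adjusted 0.0311) with 3 of 7 above. The adjustment covered the receptor genes only. The share of all genes passing was not computed, either on the rescaled level or with olfactory receptor genes alone as background. In the counts of D2 MS against SS, 13164 of 41125 genes had an unadjusted p under 0.05 (edgeR), and DESeq2 called 15.2%. Whether these passes are particular to Oprk1 was not tested. In D1 nuclei the rescaled level was 1.92 ± 0.267 (SS), 2.19 ± 0.591 (SM), 2.0 ± 0.34 (MS) and 2.19 ± 0.543 (MM), and none of 20 tests in D1 passed (smallest exact permutation p = 0.126, adjusted 0.398).

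Other values moved with this result. The background of D2 nuclei was 0.512 ± 0.0499 CPM per kb in SS (SD, n = 7) and 0.436 ± 0.0725 in MS (SD, n = 8). With log2 background as a covariate the Oprk1 value fell to 0.33 and was not called (adjusted p = 0.296, edgeR), and that of Oprd1 to 0.01 (adjusted p = 0.955). The rescaled level of the D1 marker Drd1 was 4.74 ± 1.31 in SS (SD, n = 7) and 6.20 ± 1.53 in MS (SD, n = 8) of D2 nuclei, while the D1 marker Pdyn was 1.80 ± 0.27 and 1.55 ± 0.35. A further D1 marker, Tac1, was 3.27 ± 0.73 and 3.84 ± 1.19. The means of the D2 markers Adora2a, Drd2 and Penk were also higher in MS than in SS of D2 nuclei. Adora2a was 9.80 ± 1.54 and 13.0 ± 2.79, Drd2 28.1 ± 4.58 and 34.9 ± 11.3, and Penk 120 ± 18.6 and 144 ± 53.9. In SM of D2 nuclei Drd1 was 6.19 ± 2.20, Tac1 4.62 ± 1.57 and Pdyn 1.97 ± 0.45 (SD, n = 7). Drd1 stood at 33.4 ± 9.18 in the SS group of D1 nuclei (SD, n = 8). The part of nuclei of the other class in the Oprk1 value was not tested.

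Whether the classes differed in their response was tested as an interaction. Of the 4 receptor genes 0 were called in the 4 comparisons, in each of which 0% of 42870 genes were called, with 1053 to 10569 genes at an unadjusted p under 0.05. The 10569 belong to MS against SS. The largest value was that of Oprk1 for MS against SS, 1.02 ± 0.36 higher in D2 than in D1 nuclei (SE, adjusted p = 0.149, edgeR). It was 0.47 ± 0.27 without D1 SS replicate 1 (SE, adjusted p = 0.647). DESeq2 called it (1.33, adjusted p = 0.0404) among 12.1% of all genes. It called 1 gene in the other interactions, for MM against SS, and limma voom called 0.

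**Figure D5:**
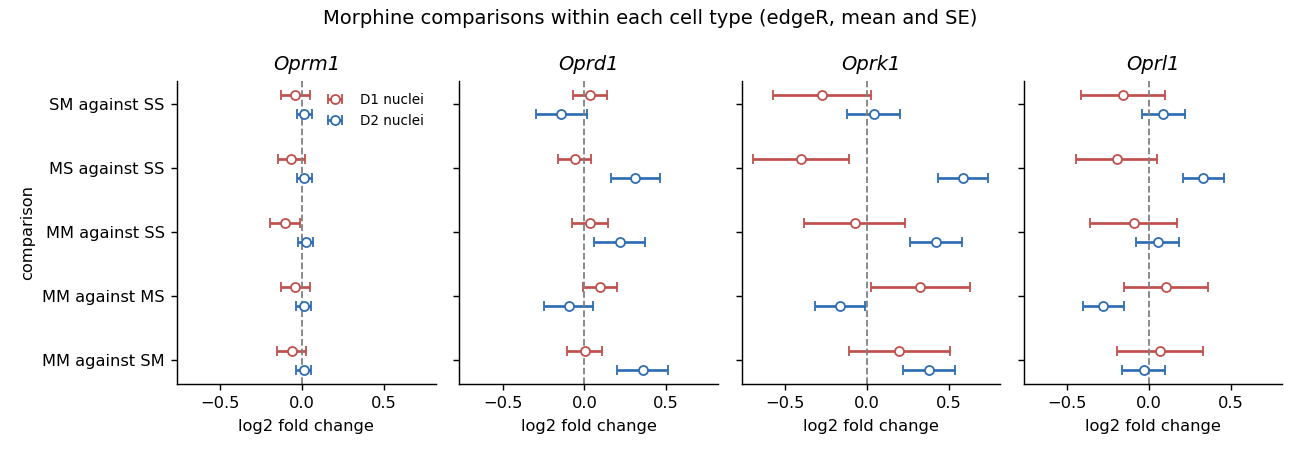
edgeR log2 fold change of each receptor gene for 5 morphine comparisons in D1 (red) and D2 (blue) nuclei, as estimate and SE; filled points would mark an adjusted p under 0.05 and there are none. Oprk1 in D2 nuclei lies at 0.59 for MS and 0.42 for MM against SS, and Oprm1 lies near 0.

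The genes of the peptides that act on these receptors were followed beside them. Penk, which encodes the enkephalin precursor, stood at 253 ± 90.3 CPM in D2 (SD, n = 29) and 86.8 ± 45.3 in D1 nuclei (SD, n = 32), a log2 difference of 1.42 ± 0.18 (SE, adjusted p = 4e-07, edgeR). Pdyn, which encodes the dynorphin precursor, stood at 14.6 ± 1.64 CPM in D2 and 67.8 ± 26 in D1 nuclei, a log2 difference of -2.35 ± 0.14 (SE, adjusted p = 2.5e-19, edgeR). Penk is a D2 and Pdyn a D1 marker, so their direction is also a check of the sort. Pomc (the endorphin precursor) and Pnoc (the nociceptin precursor) were 2.01 and 1.68 times background, with log2 differences of -0.05 ± 0.06 and 0.06 ± 0.06 (SE), neither called. Of the 4 precursors 1 was called higher and 1 lower over all treatments, where 0.301% of genes were called, and 0 were called in any morphine comparison of either class.

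Further down the pathway, 31 genes of G proteins, arrestins, receptor kinases, channels, adenylyl cyclases, regulators of G protein signalling and peptide processing were followed, and all 31 were tested. Over all treatments 0 were called higher and 1 lower in D2 nuclei, where 0.301% of genes were called. That gene was Rgs4, which speeds the shut-off of inhibitory G proteins, at 13.3 ± 3.34 CPM in D2 (SD, n = 29) and 19.7 ± 7.24 in D1 nuclei (SD, n = 32), a log2 difference of -0.71 ± 0.14 (SE, adjusted p = 0.0041, edgeR). The list's median log2 difference was -0.18, beside 0.01 over all genes tested, and -0.08 without D1 SS replicate 1. In the 6 morphine comparisons of each class 0 of 31 were called, as were 0% of all genes. For MS against SS the list's median was 0.27 in D2 nuclei beside -0.05 over all genes, and -0.39 in D1 nuclei beside 0.01. The D1 median was 0.01 without D1 SS replicate 1, beside 0.01 over all genes.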

How the data were processed

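RNA of D1 and D2 nuclei was profiled in 61 libraries. Read counting with featureCounts, the build mm10 and the use of DESeq2 are named in the submitters' processing notes. No aligner, annotation release, strand setting or version is given there. Raw counts per gene, deposited by the authors, were analysed, and the FPKM values that the authors deposited served to recover gene length. That length equalled the gene span in GENCODE M21 for 54753 of 55072 genes (relative tolerance 1e-06). Of 55401 identifiers, 55141 matched M21, which also gave symbols and coordinates.

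Counts were fitted with edgeR 4.0.16 in R 4.3.3 (TMM, filterByExpr by group, robust quasi-likelihood test, two-sided, Benjamini-Hochberg adjustment, threshold 0.05), once in 32 D1, once in 29 D2 and once in all 61 libraries. Standard errors are the log2 estimate divided by the square root of F. Level above background was compared by two-sided permutation tests over libraries (scipy 1.17.1), exact where a group had fewer than 10 and with 100000 resamples otherwise. Alternatives were DESeq2 1.42.0, limma 3.58.1 voom, DESeq2 size factors, library totals only, no filter, background as covariate, a replicate block, other background genes and leaving out D1 SS replicate 1. The scripts were tested on simulated counts. The 4 receptor genes, the precursor, signalling and marker lists, and the tests were chosen with earlier results of these data known. Named in the text are the receptor genes, the 4 precursors, signalling genes that were called, and the 3 genes most like each receptor gene at 2 times background. The marker list of 1 class lost Gpr52, which was not matched. No pair of libraries in a group was identical, and the chi-square per gene between them was at least 1.72. The number of libraries sets the precision.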

Additional observations from a re-analysis of the deposited data

Results flagged for a closer look

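Within each group the library furthest from the others was looked at by its gap to the nearest one, relative to the range of the group. Of 32 groups (4 genes in 8 groups), 5 held such a library, and chance alone gives about 1 in 20 groups. D1 SS replicate 1 had the lowest Oprm1 density of 8 libraries, at 0.259 CPM per kb, and the highest Oprk1 density, at 2.09 CPM per kb. It is also the library with the lowest background (0.057 CPM per kb). On the level rescaled to counts outside the background it ranked 2 of 8 for Oprk1, at 2.20 beside 1.60 to 2.32 in the others. D1 MS replicate 2 had the lowest Oprm1 density of 9 libraries, at 0.35 CPM per kb, and the highest Oprl1 density, at 2.82 CPM per kb, and the lowest background of its group (0.278 CPM per kb). D2 SS replicate 3 had the highest Oprk1 density of 7 libraries, at 1.10 CPM per kb.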

How the results depend on the processing

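Single values kept their direction and side of the threshold, or for median ratios to background stayed within 1 SD, in 231 cases. They passed the threshold anew in 23, no longer passed in 5, changed sign in 26 and moved by more than 1 SD in 2. Over all treatments, Oprd1 was called under every alternative run, with log2 differences between 0.51 and 0.59. With 1 receptor gene called over all treatments in the counts as fitted first, 2 were called with library totals only, DESeq2, the background covariate and the replicate block, Oprk1 being added at -0.38, -0.60, -0.28 and -0.54, where 0.413%, 0.359%, 0.597% and 0.338% of all genes were called. In SS, where 0 were called, 2 were with DESeq2 size factors and with DESeq2, and 1 with library totals only and with the covariate (0.056% and 0.0606% of genes). DESeq2 size factors and DESeq2 also called 19.2% and 22.9% of all genes there. In MM, where 1 was called, 0 were with DESeq2 size factors, limma voom and DESeq2 (0.0397%, 0.056% and 0.0933% of genes). In D2 MS against SS, where 0 were called, DESeq2 called 2 and the block 1 (15.2% and 20.9% of genes), and DESeq2 called 1 in the difference of this comparison between the classes (12.1%).

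These values changed sign. Oprm1, D2 against D1, went to -0.0188 with DESeq2 size factors and to -0.0174 with DESeq2, and its level above background went to 0.00116, or 0.00907 without D1 SS replicate 1, when rescaled to the counts outside the background. Oprm1 in D2 MS against SS went to -0.13 with library totals only. Oprk1, D2 against D1 in MS, went to -0.0563 with library totals only, -0.0930 with the covariate and -0.0139 with the replicate block, and its level above background to -0.308 on that rescaled level, with and without that library. Oprd1 in D2 MS against SS went from 0.196 to -0.00680 on it. In D1 nuclei, Oprk1 against SS went to 0.272 (SM), 0.137 (MS) and 0.470 (MM) without D1 SS replicate 1, to 0.198, 0.138 and 0.275 with the covariate, to 0.0804 (SM) and 0.201 (MM) with library totals only, and in MM to 0.160 with limma voom and 0.0538 with the replicate block. Oprl1 in D1 MS against SS went to 0.0692 without that library, 0.0972 with the covariate and 0.0198 with library totals only, and Oprd1 in D1 MM against SS to -0.1000 with DESeq2 size factors and -0.0897 with DESeq2. As a log2 ratio to background, the Oprk1 difference over all treatments was -0.52 and no longer passed (adjusted p = 0.0796). Bitter taste receptor and keratin-associated genes as background, chosen after seeing the data, put Oprm1 at a median ratio of 0.819, and genes within 500 kb put Oprd1 at 0.912. The cause of these changes was not tested.

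Within a class, same-numbered libraries of different groups correlated at a median of 0.02 in D1 (45 pairs) and 0.02 in D2 (42 pairs). Of these pairs, 14 and 16 were over 0.1. Differently numbered libraries gave medians of 0.01 in D1 (338 pairs) and -0.0011 in D2 (273 pairs), with 120 and 98 over 0.1. Pairs of a D1 with a D2 library were not examined. With the replicate block, Oprk1 in D2 MS against SS was 0.61 (adjusted p = 0.032, edgeR), with 20.9% of all genes called. Background counts limit what can be seen, most of all for Oprm1.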

Other observations

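Within a class, receptor genes were compared with each other on the level rescaled to counts outside the background. In D2 nuclei, Oprd1 and Oprl1 ran opposite ways (Pearson's r -0.672, Spearman's rho -0.653, n = 29). In D1 nuclei without replicate 1 of SS, the same pair gave 0.267 and 0.272 (n = 31), and Oprd1 and Oprk1 gave -0.649 and -0.521. These are descriptions of 12 pairs, and the libraries share their total and background.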
